A study of Mus musculus with 6 samples.

Results

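The SR splicing factors form a small family of RNA-binding proteins, and the expression of 10 of its genes was followed in testes of mice at 5 days postpartum (dpp) in which 1 family member, *Srsf1*, was deleted in germ cells. The members were *Srsf1*, *Srsf2*, *Srsf3*, *Srsf4*, *Srsf5*, *Srsf6*, *Srsf7*, *Srsf9*, *Srsf10* and *Srsf11*, taken by gene name from the deposited table. They made up 10 of the 54532 genes listed there, and all 10 were among the 16206 genes tested. RNA of whole testes was sequenced in 3 control (Ctrl) and 3 conditional knockout (cKO) samples, all at 5 dpp. Whether a sample came from a single mouse or from a pool is not stated, and each is called a testis below. The cKO mice were *Vasa*-Cre *Srsf1* Fl/del, a name that gives 1 floxed and 1 deleted *Srsf1* allele. Exons 2, 3 and 4 of the floxed allele lie between *loxP* sites, and the Cre recombinase is driven by *Vasa* (*Ddx4*), a germ cell gene. The labels give the genotype of the other group only as Ctrl. Read as the genotype of the mouse, Fl/del puts 1 deleted allele in its somatic cells too. Neither the labels nor the study's methods state this. A testis at this age holds Sertoli, Leydig, peritubular and blood vessel cells beside the germ cells, and a bulk sample averages over all of them. In such samples fewer cells of a type and less RNA per cell cannot be told apart.

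SR proteins carry RNA recognition motifs at one end and a tail rich in arginine and serine, the RS domain, at the other. Bound to exonic enhancers, they help the U1 and U2AF complexes to find the splice sites nearby, and members that leave the nucleus with the mRNA also serve in export and translation. SRPK and CLK kinases phosphorylate the RS domain and so set where the proteins are found and how active they are. Many family members limit their own expression by splicing their transcripts into forms with a premature stop codon, which are degraded by nonsense-mediated decay (NMD), and members can act in this way on one another. SRSF1 was among the first of the family to be described and acts both in constitutive and in alternative splicing.

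*Srsf1* lies on the forward strand at chr11:88047373-88053755 (GRCm38). The exons that Cre removes held most of its annotated message, so that the sequence of the first pair of them is shown, as read from the GENCODE M21 coding transcript that spans the gene. Both are coding throughout. Exon 2 runs from the end of the first RNA recognition motif through the glycine-rich linker, and exon 3 holds much of the second motif. No letters are in capitals because the whole of each is removed.
*Srsf1* exon 2, chr11:88048490-88048674, 185 bases: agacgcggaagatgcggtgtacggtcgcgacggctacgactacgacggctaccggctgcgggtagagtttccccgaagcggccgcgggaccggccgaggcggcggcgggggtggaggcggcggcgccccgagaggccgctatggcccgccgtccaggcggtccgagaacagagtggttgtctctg
*Srsf1* exon 3, chr11:88049043-88049215, 173 bases: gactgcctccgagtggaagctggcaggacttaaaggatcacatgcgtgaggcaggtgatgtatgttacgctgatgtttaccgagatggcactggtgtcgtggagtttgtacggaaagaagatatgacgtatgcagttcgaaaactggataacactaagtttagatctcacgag
Exon 4, at chr11:88049412-88053755, holds the end of the coding sequence and the 3′ UTR. Exons 2 to 4 held 550 of the 744 coding bases of this transcript, which is 73.9%, and 88.4% of the 5710 exonic bases of the gene lay from exon 2 on. Reads from exon 1, 660 bases long, can still arise from a deleted allele. The deposited table gives 1 value per gene, so that reads of exon 1 and of the deleted exons could not be counted apart.

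FPKM, the unit of the table, divide the fragments of a gene by its length and by a scale factor per library. Here that factor was a median-of-ratios factor and not the total of the library. The 6 libraries held between 15448191 and 18964743 reads assigned to genes, recovered from the FPKM steps, and 514 to 13413 reads lay behind each member's value in a library. Because the labels' extraction text names retinas while the tissue is given as testis, markers of both were checked. All 10 retina markers were at or below 0.311 FPKM in every library, and 2 of them were at 0 throughout. Summed over 15 Sertoli cell markers the level was 2444 to 3595 FPKM in the Ctrl testes and 3275 to 3677 FPKM in the cKO testes. The 10 Leydig cell markers summed to 625 to 808 FPKM in the Ctrl testes and 861 to 970 FPKM in the cKO testes, and the 6 endothelial markers to 52.8 to 61.8 FPKM and 69.8 to 76.1 FPKM. The 6 peritubular myoid markers summed to 521 to 533 FPKM in the Ctrl testes and 328 to 511 FPKM in the cKO testes.

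*Srsf1* was read first, as a check of the labels. Its level was 82.1, 89.1 and 88.4 FPKM in the 3 Ctrl testes and 45.1, 46.3 and 51.6 FPKM in the 3 cKO testes. Every cKO testis was below every Ctrl testis, and the gap between the groups was wider than the spread within either. The Ctrl mean was 86.6 ± 3.85 FPKM (SD, n = 3) and the cKO mean 47.7 ± 3.48 FPKM (SD, n = 3), which is 55.1% of the Ctrl level. On the log2(FPKM + 1) scale the difference was −0.85 with an SE of 0.087 and a 95% interval of −1.05 to −0.64. The unadjusted limma p was 2.08e-05, and adjusted over all 16206 genes it was 0.058, just above the threshold of 0.05. Tested among the 13204 protein-coding genes alone, *Srsf1* had an adjusted p of 0.016, and limma voom on the recovered reads gave 0.025. Of 17 other settings 5 passed the threshold and 12 did not, with an adjusted limma p of up to 0.225. By RNA-seq and RT-qPCR the study reports significantly lower *Srsf1* in cKO testes, and by western blotting significantly lower SRSF1 protein. Between 4051 and 9687 reads stood behind the FPKM of *Srsf1* in a library. Among 8242 protein-coding genes of at least 5 FPKM, 71 had a log2 difference further below 0 than that of *Srsf1*. *Gm11508*, a gene on the opposite strand that overlaps 1.72% of the *Srsf1* exons, was listed at no more than 0.281 FPKM in any library.

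Germ cell markers moved with *Srsf1*. Of 20 such genes 19 were tested, and all 19 had a lower mean in cKO testes, with a median log2 difference of −1.57. Of them 17 were lower without overlap between the groups, against 12.8% of all genes tested. Their summed level was 273.8 to 651 FPKM in the Ctrl testes and 83.1 to 129 FPKM in the cKO testes, and none of the 20 was at 0 in all libraries. How much of the lower *Srsf1* level went with the lower level of the germ cell markers was not tested. Nor was it tested how much went with a deleted allele in somatic cells.

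**Figure D1:**
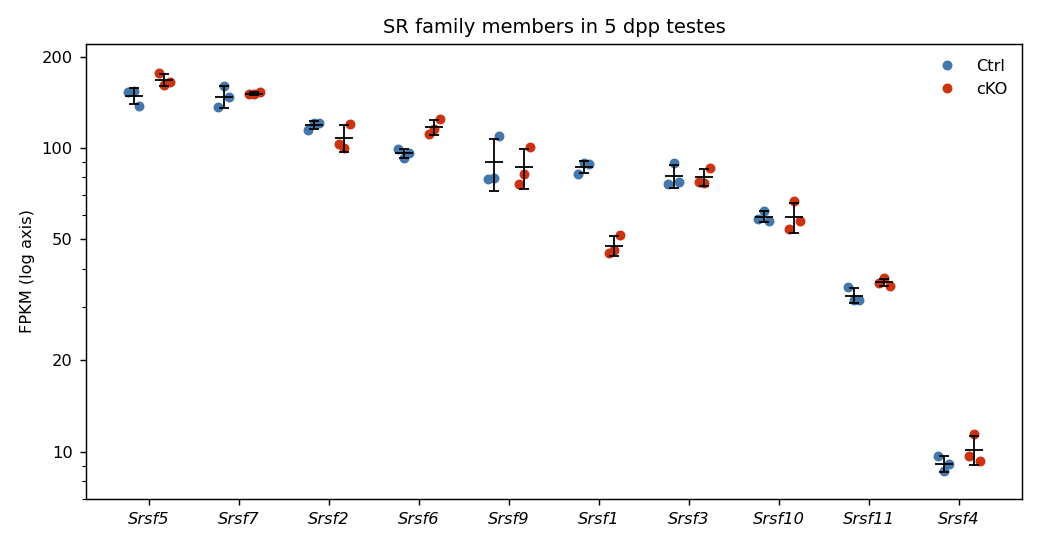
FPKM of the 10 SR members on a log axis, ordered by their Ctrl mean, with 1 point per testis (Ctrl blue, cKO red) and black bars for the mean and SD of 3 testes. The 3 cKO points of *Srsf1*, between 45.1 and 51.6 FPKM, all lie below its Ctrl points, between 82.1 and 89.1 FPKM, while for *Srsf5*, *Srsf6* and *Srsf11* the cKO points all lie above.

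By level, the family spread over more than a factor of 10 in Ctrl testes. *Srsf5* at 148 ± 9.07 FPKM and *Srsf7* at 148 ± 12.0 FPKM (SD, n = 3 each) stood at the top, and their ranges overlapped. *Srsf2* at 119 ± 3.68 FPKM came next and was apart from both of its neighbours in the order. *Srsf6* at 96.3 ± 3.29 FPKM, *Srsf9* at 89.7 ± 17.5 FPKM, *Srsf1* at 86.6 FPKM and *Srsf3* at 81.0 ± 7.10 FPKM formed a run in which each overlapped the next. *Srsf10* at 59.5 ± 2.42 FPKM, *Srsf11* at 32.7 ± 1.84 FPKM and *Srsf4* at 9.15 ± 0.545 FPKM followed, with no overlap between neighbours. Apart from *Srsf4*, which was above 55.7% of the 13204 protein-coding genes tested, every member was above at least 87.5% of them in the mean of Ctrl testes.

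In cKO testes *Srsf5* and *Srsf7* again stood at the top and *Srsf11* and *Srsf4* at the bottom. *Srsf1* moved from rank 6 to rank 8 of 10, below *Srsf3* and *Srsf10*, and from above 96.3% to above 92.4% of the protein-coding genes. *Srsf6* and *Srsf2* changed places at ranks 3 and 4, although their cKO ranges overlapped. The length by which FPKM are divided equalled that of all GENCODE M21 exons of the gene together for 9 members. For *Srsf7* it was 2279 bases, where those exons cover 3550 bases, so that the place of *Srsf7* in the order rests on a length that could not be traced. The deposited length was between 0.948 times (*Srsf7*) and 3.02 times (*Srsf3*) the longest coding transcript. Divided by that transcript's length instead, *Srsf3* stood at rank 2 in both groups and *Srsf1* at rank 8 in Ctrl and 9 in cKO testes, so that the order depends on the length used. The ratio of the groups for 1 gene does not depend on it.

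SRSF9 is the member closest to SRSF1 in build, with a pair of RNA recognition motifs and a short RS domain. *Srsf9* was at 79.3, 80.0 and 109.8 FPKM in the Ctrl testes and 76.1, 82.3 and 100.6 FPKM in the cKO testes. The third testis was the highest in each group, and the groups overlapped almost fully. The log2 difference was −0.048 with a 95% interval of −0.43 to 0.33, the widest of the 9 members other than *Srsf1*, which takes in folds from 0.744 to 1.26.

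SRSF4, SRSF5 and SRSF6 share the pair of motifs and have longer RS domains. *Srsf6* was at 99.6, 93.0 and 96.2 FPKM in the Ctrl testes and 111.1, 115.7 and 124.7 FPKM in the cKO testes. All 3 cKO testes were above all 3 Ctrl testes. The mean was 96.3 ± 3.29 FPKM against 117 ± 6.94 FPKM (SD, n = 3 each), or 122% of the Ctrl level. The log2 difference was 0.28 with an SE of 0.084 and a 95% interval of 0.082 to 0.48, the only interval of the 9 other members that did not reach 0. Its limma p was 0.0121 before and 0.202 after adjustment over all genes, so that it did not pass the threshold. Of the 8242 protein-coding genes of at least 5 FPKM, 6.96% had a larger positive difference.

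*Srsf5* was at 153.3, 154.1 and 138.0 FPKM in the Ctrl testes and 176.8, 161.7 and 165.1 FPKM in the cKO testes. The groups did not overlap, although the lowest cKO testis was close to the highest Ctrl testis. Its mean was 113% of the Ctrl level, and the log2 difference of 0.18 had a 95% interval of −0.035 to 0.39 and an adjusted limma p of 0.394. *Srsf4*, the lowest member, was at 9.72, 8.63 and 9.11 FPKM in the Ctrl testes and 9.71, 11.4 and 9.34 FPKM in the cKO testes. Its groups overlapped, with 1 cKO testis above the rest. The log2 difference was 0.13 with a 95% interval of −0.10 to 0.37, and 0.054 without that testis.

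SRSF2, SRSF3 and SRSF7 have a single RNA recognition motif. SRSF3 and SRSF7, which has a zinc knuckle as well, hand mRNA to the export receptor NXF1, while SRSF2 stays largely in the nucleus. *Srsf2* was at 114.5, 120.6 and 121.2 FPKM in the Ctrl testes and 102.9, 99.9 and 120.4 FPKM in the cKO testes. Of the cKO testes, the first and the second were below every Ctrl testis and the third was among them. The log2 difference was −0.14, with a 95% interval of −0.37 to 0.086 and an adjusted limma p of 0.503. *Srsf3* was at 76.4, 89.2 and 77.5 FPKM in the Ctrl testes and 77.3, 77.0 and 86.0 FPKM in the cKO testes. *Srsf7* was at 136.0, 160.0 and 147.0 FPKM in the Ctrl testes and 150.1, 150.2 and 152.8 FPKM in the cKO testes. For both the groups overlapped, and the log2 difference was −0.015 for *Srsf3* (95% interval −0.24 to 0.21) and 0.035 for *Srsf7* (−0.18 to 0.25).

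SRSF10 is an unusual member that becomes a splicing repressor when it loses its phosphates, and SRSF11 is a more distant relative that contacts other RS domain proteins. *Srsf10* was at 58.6, 62.2 and 57.7 FPKM in the Ctrl testes and 53.9, 67.0 and 57.4 FPKM in the cKO testes. The lowest and the highest of the 6 values were both in cKO testes. The log2 difference was −0.0064 with a 95% interval of −0.24 to 0.23, and its sign changed under quantile normalization. *Srsf11* was at 34.8, 31.7 and 31.5 FPKM in the Ctrl testes and 35.9, 37.2 and 35.1 FPKM in the cKO testes. Every cKO value was above every Ctrl value. The log2 difference was 0.14 with a 95% interval of −0.043 to 0.32 and an adjusted limma p of 0.428.

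**Figure D2:**
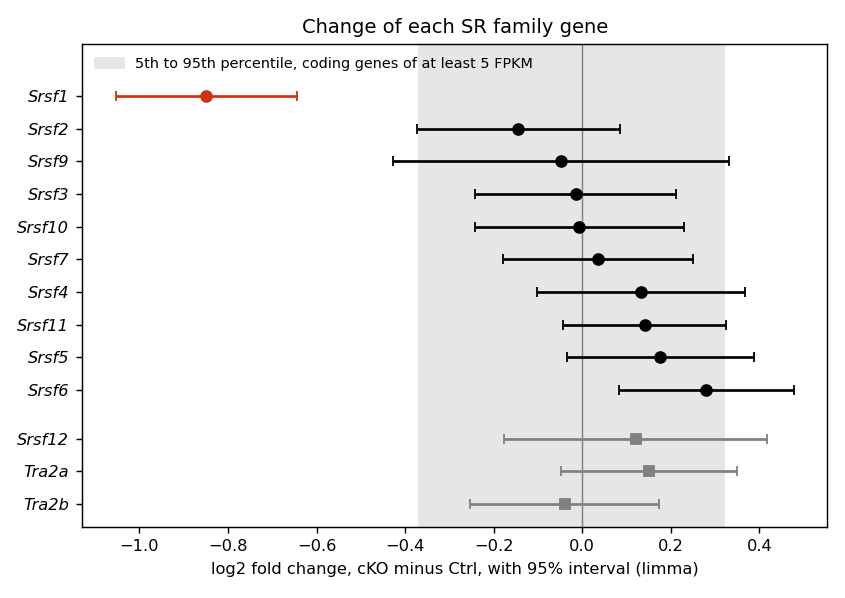
log2 fold change of cKO minus Ctrl on the log2(FPKM + 1) scale with its 95% limma interval (3 against 3 testes) for the 10 members (*Srsf1* red, others black) and 3 relatives (grey squares); the grey band spans the 5th to 95th percentile of 8242 protein-coding genes of at least 5 FPKM. *Srsf1* at −0.85 lies outside the band, *Srsf6* at 0.28 has the one interval of the others that does not reach 0, and the other points lie between −0.14 and 0.18.

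Counted over the family, limma with adjustment over all genes called 0 of 10 members lower and 0 higher. The background was the same, since it called 0 of the 16206 genes, or 0%, in each direction. The 0 calls belong to this test. The study's own test, DESeq2 on counts of these libraries, called genes both lower and higher. At an unadjusted p under 0.05 it gave 1 member lower, *Srsf1*, where 1508 genes or 9.31% of all were lower, and 1 member higher, *Srsf6*, where 1069 genes or 6.6% were higher. With limma voom, run on the recovered reads, the test called *Srsf1* alone of the members, where 61 genes (0.376%) were lower and 22 (0.136%) higher after adjustment. Among protein-coding genes only, the adjusted test again called *Srsf1* alone of the members, beside 1.33% of genes lower and 0.28% higher.

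By overlap, 1 member of 10 was lower in every cKO testis than in every Ctrl testis, against 12.8% of all genes tested, and 3 were higher, against 10.3% of all genes. The latter were *Srsf5*, *Srsf6* and *Srsf11*. The count of 3 depended on the scaling between libraries. On TPM or on quantile-normalized values *Srsf6* was the 1 member higher without overlap, and 2 members, *Srsf1* and *Srsf2*, were lower. With the authors' scaling undone, *Srsf5* and *Srsf6* were the 2 higher members. *Srsf1* lower and *Srsf6* higher were without overlap under each scaling tried. Over the 9 members other than *Srsf1*, 5 had a higher and 4 a lower mean in cKO testes, with a median log2 difference of 0.035 where all genes tested had a median of 0.0027. With so few members, nothing particular to the family was read from these counts.

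**Figure D3:**
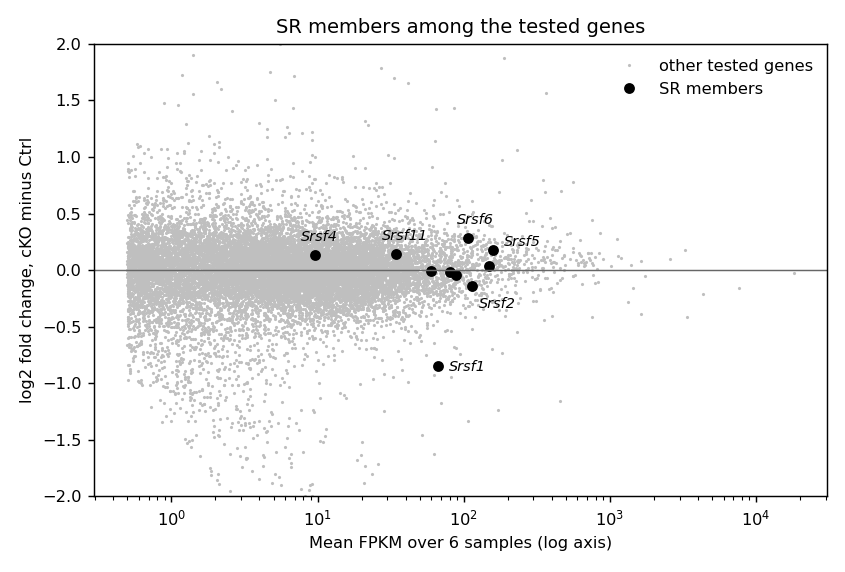
Mean FPKM over the 6 testes (log axis) against the log2 fold change of cKO minus Ctrl for the 16206 tested genes (grey) with the 10 SR members in black; 36 genes lie beyond the vertical axis, which ends at 2 in either direction. *Srsf1* at −0.85 lies below most genes of its level, and the other 9 members lie between −0.14 and 0.28.

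The rest of the family was set beside the loss of *Srsf1* by its summed level. A sum over whole testes averages over all cell types, and the germ cell markers were lower in cKO testes. It therefore cannot show whether other members offset the loss within germ cells. All 10 members together reached 844.3, 888.5 and 876.5 FPKM in the Ctrl testes and 838.9, 848.7 and 903.1 FPKM in the cKO testes. There was full overlap between the groups, and the means of 869.8 ± 22.8 and 863.6 ± 34.6 FPKM (SD, n = 3 each) differed by −0.714% (exact two-sided permutation p = 0.9). Without *Srsf1*, the other 9 summed to 762.2, 799.4 and 788.0 FPKM in the Ctrl testes and 793.8, 802.4 and 851.5 FPKM in the cKO testes. Here the lowest cKO testis was below the highest Ctrl testis, and the other 2 cKO testes were above all Ctrl testes. The mean was 32.7 FPKM or 4.17% higher in cKO testes (783.2 ± 19.06 against 815.9 ± 31.1 FPKM; exact two-sided permutation p = 0.2, where 3 against 3 samples cannot give less than 0.1). It was 4.07% higher on TPM, 3.77% with the scaling undone and 4.72% with transcript lengths, and under each of these the groups did not overlap (exact permutation p = 0.1). Without the third cKO testis the difference was 1.90%. The mean of *Srsf1* itself differed by −38.9 FPKM. The 5 members with a higher mean added 48.1 FPKM, of which *Srsf5* and *Srsf6* gave 40.3 FPKM, and the 4 with a lower mean summed to −15.4 FPKM, of which *Srsf2* gave −11.0 FPKM. Whether the sums separate thus depended on the scaling, and with 3 testes a group no test of them could pass the threshold. No member of the 9 had a 95% upper bound above a log2 difference of 0.48.

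Shares within the family do not depend on a scale factor per library. *Srsf1* made up 9.73%, 10.03% and 10.09% of the summed family FPKM in the Ctrl testes and 5.38%, 5.45% and 5.72% in cKO testes. The groups did not overlap, with a difference of −4.43 percentage points (9.95 ± 0.194% against 5.52 ± 0.179%; exact two-sided permutation p = 0.1, the smallest possible). With transcript lengths in place of the deposited ones the difference was −2.80 percentage points. Among the other 9 members, *Srsf6* held 13.1%, 11.6% and 12.2% in Ctrl and 14.0%, 14.4% and 14.6% in cKO testes. *Srsf2* held 15.0%, 15.1% and 15.4% in Ctrl and 13.0%, 12.5% and 14.1% in cKO testes. *Srsf6* with the higher and *Srsf2* with the lower cKO share were the only members of the 9 whose groups did not overlap on this measure (exact two-sided permutation p = 0.1 each, before any adjustment over the 9). For *Srsf5* the shares of 17.5% to 20.1% in Ctrl and 19.4% to 22.3% in cKO testes overlapped, as did those of *Srsf11*, 3.97% to 4.56% and 4.13% to 4.64%. Reads assigned to the 10 genes made up 0.366% to 0.388% of all reads of a library.

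**Figure D4:**
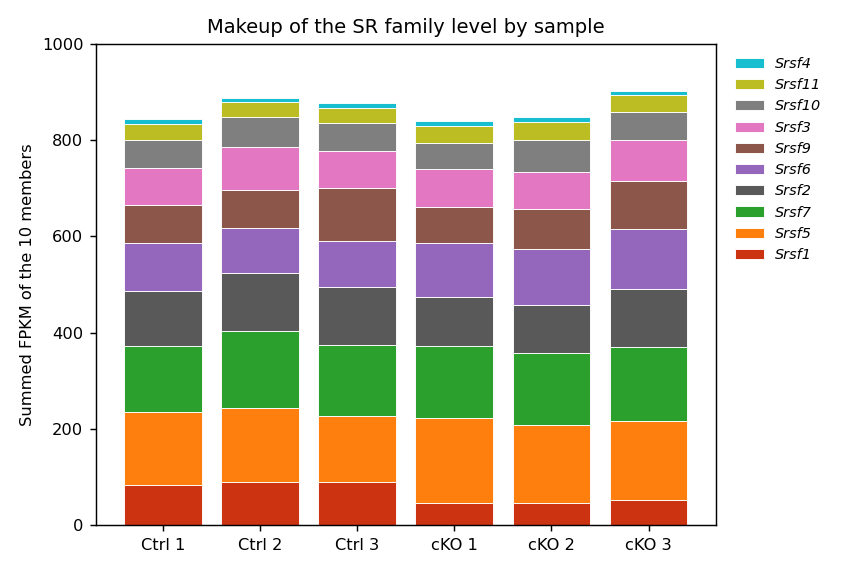
Summed FPKM of the 10 SR members in each of the 6 testes, stacked by gene from *Srsf1* (red, at the bottom) upwards in the order of the Ctrl means; the axis starts at 0 and each bar is 1 testis. The bars reach 838.9 to 903.1 FPKM, while the red segment is 82.1 to 89.1 FPKM in the Ctrl testes and 45.1 to 51.6 FPKM in the cKO testes.

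Genes whose pattern over the 6 testes was most like that of *Srsf1* were sought among 8241 other protein-coding genes of at least 5 FPKM, by the root mean square difference of centred log2 values. *Phgdh*, the first enzyme of serine synthesis, was among the 3 nearest, with a difference of 0.131. It was at 106.9, 113.6 and 97.2 FPKM in the Ctrl testes and 61.9, 69.1 and 65.5 FPKM in the cKO testes, a log2 difference of −0.68. *Chd1l*, a chromatin remodeller, was another, at 0.134 with a log2 difference of −0.79. These genes were chosen for their pattern over the same 6 testes, so that their differences between the groups are a description and were not tested. The nearest family member was *Srsf2*, at place 1365 in this order, and the furthest was *Srsf6*, at place 7364.

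The closest relatives outside the 10 genes are SRSF12, of the same build as SRSF10, and the transformer-2 proteins TRA2A and TRA2B, which also combine an RNA recognition motif with RS domains. *Srsf12* was the lowest of the 3, at 2.17 ± 0.222 FPKM in the Ctrl testes and 2.46 ± 0.398 FPKM in the cKO testes (SD, n = 3 each), with a log2 difference of 0.12 (95% interval −0.18 to 0.42). *Tra2a* was at 25.2 ± 1.14 and 28.1 ± 1.92 FPKM, with a difference of 0.15 (−0.049 to 0.35). *Tra2b* was at 31.7 ± 2.79 and 30.8 ± 1.36 FPKM, with a difference of −0.040 (−0.25 to 0.17). The groups overlapped for all 3 genes.

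Other genes of the SR pathway were taken from 6 lists, and 0 of their genes passed the adjusted limma test, as none did among all genes. Of 26 genes of SR-related proteins, *Srsf12*, *Tra2a* and *Tra2b* again among them, 18 had a higher and 8 a lower mean in cKO testes, with a median log2 difference of 0.096. In this list 6 genes, *Luc7l*, *Luc7l2*, *Scaf1*, *Srek1*, *Sfswap* and *Clasrp*, were higher without overlap, against 10.3% of all genes tested. Only *Thrap3* was lower without overlap, against 12.8% of all genes. These 7 genes were named after their values were seen, and overlap in the lists was read on the deposited scaling only. The highest Ctrl and the lowest cKO value were close for *Luc7l* (21.8 and 22.0 FPKM) and *Scaf1* (18.2 and 18.3 FPKM). The extremes of the list were *Cherp* at −0.25 and *Rnps1*, a component of the exon junction complex, at 0.31. *Rnps1* was at 26.6 FPKM in the first Ctrl testis and between 64.2 and 85.7 FPKM in the other 5, and without that library its log2 difference was −0.20.

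The 10 kinase and import genes, which act on the RS domain, had a median of 0.024, with 6 higher and 4 lower. *Srpk1* was lowest at −0.15. *Clk1* was highest, at 28.1, 32.9 and 30.9 FPKM in the Ctrl testes and 44.9, 39.3 and 32.2 FPKM in the cKO testes. The third cKO testis was within the Ctrl range, and the log2 difference was 0.32 with a 95% interval of 0.013 to 0.63 and an adjusted limma p of 0.302. In this list 1 gene was higher without overlap, against 10.3% of all genes tested, and 0 were lower. It was *Clk4*, named after its values were seen, at 14.3 to 15.7 FPKM in the Ctrl testes and 16.2 to 20.2 FPKM in the cKO testes. Of the 9 splice site recognition genes 8 were tested, with 2 higher and 6 lower and a median of −0.078. *Snrnp70*, which encodes the U1 protein contacted by SRSF1, was highest at 0.22 and without overlap, at 31.2 to 36.7 FPKM in the Ctrl testes and 38.4 to 42.4 FPKM in the cKO testes. *Zrsr2*, of the U12 spliceosome, was lowest at −0.28.

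Among 5 export partners the median was 0.0045, with *Alyref*, the TREX adaptor, lowest at −0.24 and *Thoc2* highest at 0.12. *Alyref* and *Nxt1*, the latter named after its values were seen and at −0.23, were lower without overlap, against 12.8% of all genes tested. All 4 hnRNP A genes, whose proteins compete with SRSF1 at many exons, had a higher mean in cKO testes, with a median of 0.22, from 0.013 for *Hnrnpa2b1* to 0.28 for *Hnrnpa3*. Of these 4, 1 was higher without overlap, against 10.3% of all genes tested. This was *Hnrnpa1*, chosen here after its values were seen, with a log2 difference of 0.22 and an adjusted limma p of 0.302. The 6 partner genes named by the study, *Srsf10* among them, had a median of 0.097, from −0.050 for *Sf3b6* to 0.18 for *Sart1*. Only *Rbm15*, picked out after its values were seen, was without overlap. It was at 4.33 to 4.75 FPKM in the Ctrl testes and 4.94 to 5.32 FPKM in the cKO testes.

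**Figure D5:**
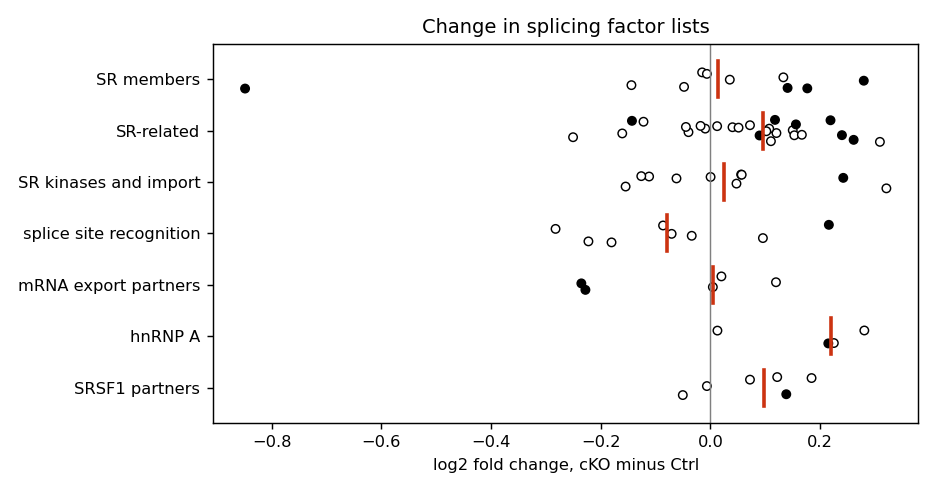
log2 fold change of cKO minus Ctrl for the 10 SR members and the tested genes of 6 splicing factor lists; 1 circle per gene, filled where no cKO value overlaps a Ctrl value, with red bars at the medians and a vertical scatter that has no meaning. Apart from *Srsf1* at −0.85, the points lie between −0.28 and 0.32.

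Gene-level values sum over productive and unproductive transcripts, and the members differ in how many of the latter are annotated. GENCODE M21 lists 85 transcripts for the 10 genes, of which 29 are coding, 15 carry the NMD label and 26 retain an intron. Of the members, 9 have an NMD transcript, and *Srsf10* has none. In 5 members, *Srsf3*, *Srsf4*, *Srsf7*, *Srsf9* and *Srsf11*, an NMD transcript holds an internal exon that touches no exon of a coding transcript and carries the stop codon. The start of these 6 exons, up to and including the stop in capitals, is shown because reads from them, where counted, add to the FPKM without adding to the protein (GENCODE M21, GRCm38, each in the sense of the gene, with the position of the whole exon).
*Srsf3*, chr17:29039454-29039909, forward strand: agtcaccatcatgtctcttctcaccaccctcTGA
*Srsf4*, chr4:131884276-131884482, forward strand: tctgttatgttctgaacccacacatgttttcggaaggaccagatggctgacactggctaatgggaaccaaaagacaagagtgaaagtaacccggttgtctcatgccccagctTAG
*Srsf7*, chr17:80204622-80205081, reverse strand: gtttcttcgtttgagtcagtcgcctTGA
*Srsf9*, chr5:115328347-115328704, forward strand: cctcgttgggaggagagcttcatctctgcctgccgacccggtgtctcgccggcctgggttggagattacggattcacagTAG
*Srsf11*, chr3:158024123-158024231, reverse strand: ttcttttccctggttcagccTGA
*Srsf11*, chr3:158023243-158023359, reverse strand: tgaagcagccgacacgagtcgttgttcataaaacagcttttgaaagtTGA
The reading frame ran from 23 to 115 bases into these exons before it met the stop. The whole exon made up 21.7% of the length by which *Srsf9* was scaled, and 1.29% to 5.81% for *Srsf3*, *Srsf4* and *Srsf11*. For *Srsf7*, whose deposited length left out part of the annotated exons, it is not known whether reads of this exon were counted. How far each exon was included in Ctrl and cKO testes was not analysed here.

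Some reads of the family may not be assigned to it with certainty, where another gene overlaps a member or shares sequence with it. For overlaps on the opposite strand, whether counting used the strand is not given in the sources used here. *Mettl23* and *Mfsd11* overlap 15.6% and 9.74% of the *Srsf2* exons on the opposite strand. *Mettl23* was at 9.17 to 12.8 FPKM and *Mfsd11* at 3.19 to 4.08 FPKM over the 6 testes, against 99.9 to 121.2 FPKM for *Srsf2*. *Gm12992* overlaps 43.0% of the exons of *Srsf4*, the member with the fewest reads, and was at 0.584 to 0.979 FPKM. Stretches of 50 bases that occur in another annotated gene, on either strand, made up 39.5% of those of *Srsf4* and 20.7% of *Srsf2*. These were the overlaps just given. *Gm12992* shared 39.5% of the *Srsf4* stretches, and *Mettl23* and *Mfsd11* shared 13.1% and 7.63% of those of *Srsf2*. The share was 10.04% for *Srsf3*, 10.08% for *Srsf5* and 10.3% for *Srsf10*. For *Srsf6* and *Srsf9* the share was 0, and for *Srsf1* it was 0.882%. The study's reads were paired and longer than 50 bases, so that these shares are not shares of uncertain reads. *Gm12966*, which shares 9.61% of the *Srsf5* stretches, was at 25.1, 23.0 and 29.2 FPKM in the Ctrl testes and 17.7, 19.7 and 26.8 FPKM in the cKO testes, with a log2 difference of −0.27 and an adjusted limma p of 0.460. *Gm9761*, which shares 4.49% of the *Srsf3* stretches, was at 29.3 to 38.2 FPKM in the Ctrl testes and 27.7 to 33.2 FPKM in the cKO testes. Both were named after their values were seen.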

How the data were processed

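Poly(A) RNA, purified from total RNA of 5 dpp testes in 3 Ctrl and 3 cKO samples, was sequenced. The authors aligned reads with HISAT2 2.0.5 to mm10, counted them with featureCounts, tested counts with DESeq2 and deposited 1 table of FPKM for 54532 genes. The annotation release and the strand setting are not given in the sources used here. 54495 identifiers were found in GENCODE M21, 53585 of them at the same GRCm38 position. Multiplied by gene length, the FPKM of a library fell on whole steps of 1 size (100% of values, within 0.01), from which reads were recovered. The deposited FPKM already carried median-of-ratios scaling.

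Because the unit was FPKM, limma 3.58.1 (R 4.3.3) was fitted to log2(FPKM + 1) of the 16206 genes whose mean reached 0.5 FPKM, with a mean-variance trend and no covariate. P-values were two-sided and Benjamini-Hochberg adjusted over all genes. This scale understates changes of low genes. Sums and shares were compared by exact permutation. Other scalings, filters and pseudocounts, voom on recovered reads, sample weights, a replicate block and leaving out each testis were tried as alternatives.

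The members and lists were chosen with earlier results of these data known. Named were the 10 members, 3 relatives, each list's most negative and most positive gene, 3 genes most like *Srsf1*, and overlapping genes or named pseudogenes. Of these, 1 gene is not reported here. Replicates were separate samples by title. The study calls them biological, and Pearson correlations within groups were 0.970 to 0.981. For a 1 kb gene, 3 reads amount to 0.158 to 0.194 FPKM, a floor that covers counting error only. Marker lists for macrophages and erythroid cells were read too, with median log2 differences of 0.035 and 0.69.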

Additional observations from a re-analysis of the deposited data

How the results depend on the processing

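The log2 difference of *Srsf1* ran from −0.88 to −0.84 over 11 other settings and from −0.91 to −0.81 with 1 testis left out (adjusted limma p 0.061 to 0.225). It passed the threshold on TPM (−0.86, adjusted p = 0.036), with protein-coding genes only (−0.85, 0.016), with limma voom (−0.86, 0.025) and with sample weights (−0.88, 0.029), so that 1 member was called lower there. It did so too with the replicate number as a block (−0.85, 0.033), which called 84 genes lower and 14 higher. Same-numbered testes correlated at 0.066, 0.016 and 0.088 in their deviations, and the second cKO testis correlated best with the first Ctrl testis (0.041), so that the numbers were not taken as pairs. Calls over all genes, lower and higher, were 1 and 4 on TPM, 0 and 1 without the trend, 176 and 37 among protein-coding genes, 61 and 22 with voom, 55 and 13 with sample weights, and 0 to 15 and 0 to 3 with 1 testis left out, the most without the second Ctrl testis. The cause was not tested.

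Members without overlap were 2 lower and 1 higher on TPM and on quantile-normalized values. With 1 testis left out they were 1 to 2 lower and 3 to 4 higher, *Srsf2* being added to the lower ones without the first Ctrl or the third cKO testis and *Srsf10* without the second cKO testis. The difference in the *Srsf1* share was −2.80 percentage points with transcript lengths, −4.17 with *Srsf12*, *Tra2a* and *Tra2b* included, and −4.54 to −4.36 with 1 testis left out. With transcript lengths *Srsf1* ranked 8 in Ctrl and 9 in cKO testes. The sum of the other 9 was 3.30% to 4.72% higher over 5 other settings (exact permutation p 0.1 to 0.2) and 1.90% to 5.58% higher with 1 testis left out. Of 153 values for the 9 other members 10 changed sign, all for members near 0, and none passed the threshold (lowest adjusted p 0.162). *Srsf10* was 0.0082 under quantile normalization and −0.094 to 0.059 with 1 testis left out, *Srsf3* −0.067 to 0.055, *Srsf7* −0.022 to 0.094 and *Srsf9* −0.16 to 0.11. *Srsf4*, which kept its sign, ran from 0.054 to 0.19 and *Srsf2* from −0.23 to −0.093. No scaling moved the median of all genes past 0.021. With 3 testes a group, the 95% intervals of the 9 members spanned 0.37 to 0.76 on the log2 scale, which limits what change could be seen.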
